A study of Rattus norvegicus with 18 samples.

Results

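The miR-200 family and miR-205 were described in rat cervical dorsal root ganglia (DRG), the ganglia that hold the cell bodies of sensory neurons of the forelimb. The set was chosen by name as every deposited miRNA entry called miR-200a, miR-200b, miR-200c, miR-141, miR-429 or miR-205, with either arm of the hairpin included, and it holds 10 of 753 entries. It was proposed because miR-205 was already known to differ in the bPYX+NT3 group of these same libraries. Its values in the comparisons with bPYX+NT3 are therefore given as a description and without a test. The study lists miR-205 among the small RNAs changed with NT3 and not in bPYX+GFP against naive. Its value in that comparison is thus a description as well. Of the 10 entries, 8 had at least 1 count and 4 passed the detection filter, which asked for over 10 counts in 6 or more of all 18 libraries, namely rno-miR-205, rno-miR-200c-3p, rno-miR-200b-3p and rno-miR-200a-3p, written from here on without the rat prefix. The other 6 were miR-141-3p, miR-141-5p, miR-200b-5p and miR-429, which fell below the filter, and miR-200a-5p and miR-200c-5p, which are listed at 0 in every library.

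Small RNA was sequenced from 18 adult lister hooded rats in 3 groups of 6. Naive rats had no surgery and no vector. The rats of the bPYX+GFP group had both corticospinal tracts transected in the medullary pyramids (bilateral pyramidotomy, bPYX) and an adeno-associated virus of serotype AAV1 carrying green fluorescent protein injected into forelimb flexor muscles on one side 1 day later. The bPYX+NT3 rats had the same injury and the same type of vector carrying human prepro-neurotrophin-3 (NT3), and both vectors were driven by the CMV promoter, which is active in many cell types. DRGs C6 to C8 of the injected side were pooled within each rat, 10 weeks after injury in the 2 operated groups. No rat had the injury without a vector or the vector without the injury, so the effects of injury and of the GFP vector cannot be told apart.

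MicroRNAs are short RNAs that guide silencing complexes to messenger RNAs, mostly through the seed, bases 2 to 8 from the 5′ end. The miR-200 family is made from a pair of gene clusters, one with miR-200a, miR-200b and miR-429 and the other with miR-200c and miR-141, while miR-205 has a gene of its own. Both are known from epithelia, where they hold down the transcription factors ZEB1 and ZEB2 and so help to keep cells epithelial, and miR-205 is abundant in skin. Neither is a standard marker of sensory neurons.

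The mature sequences below, from RefSeq (rat assembly GRCr8), show which members can share targets, with the seed in capitals. The table held 7 of the 10 members. miR-200a-3p, miR-200b-3p and miR-429 are named only.
miR-205: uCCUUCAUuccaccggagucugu
miR-200c-3p: uAAUACUGccggguaaugaug
miR-141-3p: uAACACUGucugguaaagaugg
miR-141-5p: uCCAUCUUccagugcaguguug
miR-200a-5p: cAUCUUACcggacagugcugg
miR-200b-5p: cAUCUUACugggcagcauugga
miR-200c-5p: cGUCUUACccagcaguguuug

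miR-200c-3p and miR-141-3p, which come from neighbouring genes, differed at 4 of the 21 positions compared, counted from 1 at the 5′ end with the base of miR-200c-3p first (U4C, C9U, G11U and U17A). Of these, 1 (U4C) lies in the seed, so that the pair does not share it. As background, miR-200b-3p and miR-429 carry the seed of miR-200c-3p, and miR-200a-3p carries that of miR-141-3p. The seed of miR-205 was found in no other of the 694 mature rat entries in the table, and the seeds of miR-200c-3p and miR-141-3p differed from each other. miR-200a-5p and miR-200b-5p shared their seed with each other and with no further entry.

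The hairpins show which arms the counts came from. The arms are in capitals in the precursors of miR-205, miR-200c and miR-141, again from RefSeq.
Mir205: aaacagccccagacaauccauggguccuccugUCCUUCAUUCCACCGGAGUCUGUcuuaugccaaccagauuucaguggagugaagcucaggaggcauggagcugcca
Mir200c: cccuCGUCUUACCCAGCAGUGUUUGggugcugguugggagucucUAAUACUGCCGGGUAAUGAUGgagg
Mir141: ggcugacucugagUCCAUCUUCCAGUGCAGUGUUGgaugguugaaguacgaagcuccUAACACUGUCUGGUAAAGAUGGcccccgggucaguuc

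From the Mir200c hairpin, the 3′ arm had 1593 counts over the 18 libraries and the 5′ arm is listed at 0. From the Mir141 hairpin the 5′ arm, miR-141-5p, had 54 counts and the 3′ arm, miR-141-3p, had 12. In the order of miRNA genes in GRCr8, Mir200a stood next to Mir200b, Mir3548 lay between Mir429 and Mir200a, and Mir3575 lay between Mir141 and Mir200c. Mir205 had Mir215 and Mir29b2 as its nearest miRNA genes. A listed 0 need not mean that an arm was absent from the tissue: 181 of the 753 entries had no count in any library, 22 of them with the other arm past the filter, and they include miR-183-5p, whose cluster partner miR-182 was among the most abundant miRNAs.

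The libraries held 4.70 ± 0.66 M miRNA counts each (SD, n = 18; range 3.88 to 6.92 M). A count of 0 allows up to 3 counts, or 0.434 to 0.773 counts per M depending on the library. Levels are given in CPM, counts per M after TMM scaling. Levels of different miRNAs are compared on this scale with no correction for how well each was ligated and amplified. The tissue named in the labels was checked against cell type markers, which cannot check the group or replicate labels. The summed level of 4 sensory neuron markers ranged from 23640 to 33100 CPM, nearly all of it from miR-182 and miR-96-5p, while miR-124-3p reached at most 1.61 CPM. Only 2 glial markers were listed for this check, and both were at or near 0, with miR-338-3p listed at 0 and miR-219a-5p at most 1.53 CPM. miR-204-5p and miR-211-5p, also grouped with glial miRNAs but not in that list, had 5315 to 11922 CPM and 113 to 232 CPM. Among 6 epithelial markers miR-203a-3p and miR-31a-5p are listed at 0. In whole ganglia, fewer cells of a type and less RNA per cell cannot be told apart.

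miR-205 was the most abundant member, at 76.5 ± 25.6 CPM (SD, n = 18), rank 178 of 753 by mean level. miR-200c-3p followed at 19.0 ± 4.84 CPM (rank 256). miR-200b-3p at 2.47 ± 1.31 CPM (rank 367) and miR-200a-3p at 2.16 ± 0.82 CPM were close, and the range of miR-200a-3p over the libraries lay within that of miR-200b-3p. miR-205 was above miR-200c-3p in all 18 libraries, and miR-200c-3p above both miR-200a-3p and miR-200b-3p in all 18. The lowest members were miR-141-5p with 54 counts in all, miR-429 with 42, miR-141-3p with 12 and miR-200b-5p with 7. The ranges of neighbours in that lower order overlapped over the libraries, and their order was not tested.

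**Figure D1:**
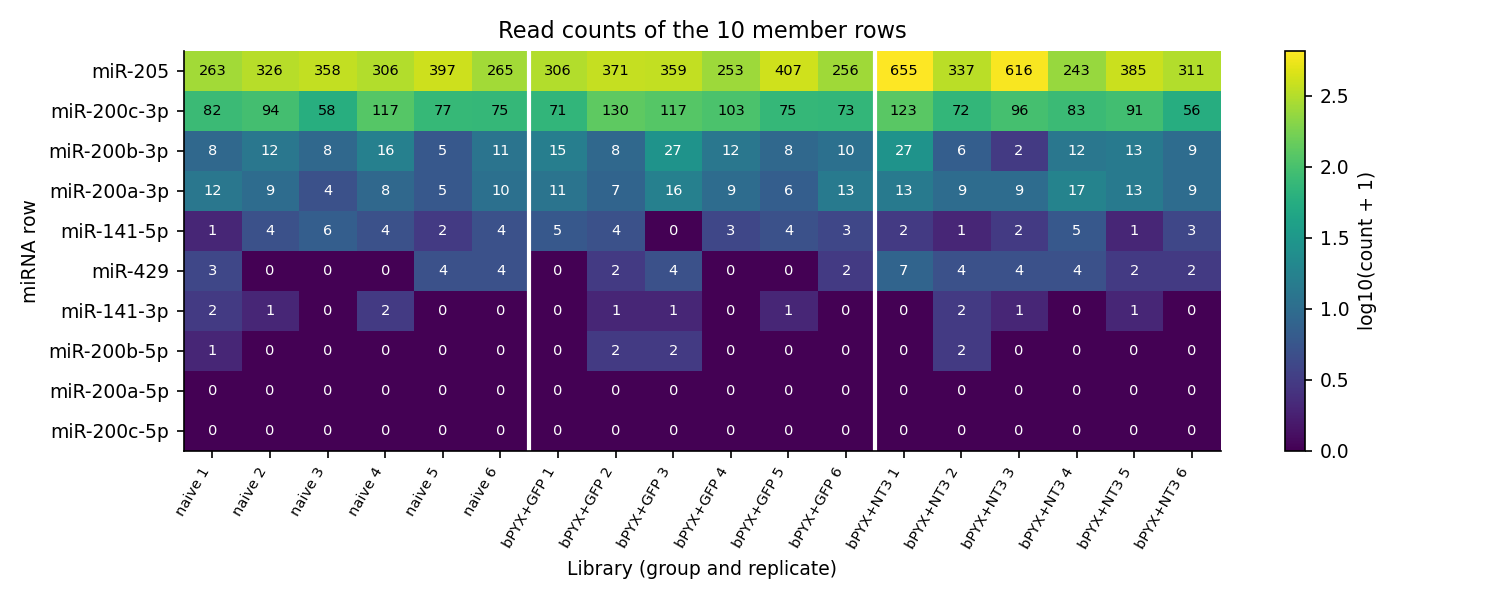
Read counts of the 10 entries (vertical) in each of the 18 libraries (horizontal, by group and replicate), with the colour on a log10(count + 1) scale. miR-205 had 243 to 655 counts and miR-200c-3p 56 to 130 in every library, and miR-200a-5p and miR-200c-5p were at 0 throughout.

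Summed over its 9 entries, the miR-200 family stood at 23.3 ± 5.58 CPM in naive rats, at 25.5 ± 5.14 CPM with the GFP vector and at 26.3 ± 8.05 CPM with NT3 (SD, n = 6 each), and the groups overlapped. miR-200c-3p made up 75.9 ± 5.15% of the family's 2097 counts (mean over 18 libraries), miR-200b-3p 9.69 ± 3.69% and miR-200a-3p 8.69 ± 2.78%. The remaining members were minor, with miR-141-5p at 2.81 ± 1.87%, miR-429 at 1.99 ± 1.67% and miR-141-3p at 0.563 ± 0.682%. By gene cluster, the pair Mir200c and Mir141 gave 79.3 ± 5.46% of the family, with 81.5 ± 3.69% in naive rats, 79.4 ± 6.85% with the GFP vector and 77.0 ± 5.30% with NT3. By seed, miR-200b-3p, miR-200c-3p and miR-429 together held 87.6 ± 2.93%, and miR-200a-3p with miR-141-3p 9.26 ± 2.79%. The family in these ganglia was thus mostly miR-200c-3p, in every group.

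Counts of miR-205 per count of the miR-200 family came to 3.12 ± 1.09 in naive rats, to 2.74 ± 0.85 with the GFP vector and to 3.64 ± 1.11 with NT3 (SD, n = 6 each). The lowest ratio in any library was 1.99 and the highest 5.40. The ratio exceeded 1 in all 18 libraries, and its groups overlapped.

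The first comparison, bPYX+GFP against naive, asks what differed 10 weeks after injury in rats that also had the GFP vector. Where a difference is given below as after injury, injury and GFP vector are meant together. miR-205, which acts in epithelia together with the miR-200 family, had 58.9, 80.7, 78.2, 61.4, 77.3 and 54.8 CPM in naive replicates 1 to 6. In bPYX+GFP replicates 1 to 6 it had 66.4, 80.7, 57.0, 57.0, 82.7 and 59.0 CPM. The groups covered almost the same range, with means of 68.6 ± 11.4 and 67.1 ± 11.8 CPM (SD, n = 6). As a description, its log2 fold change was -0.03 ± 0.13 (SE; 95% interval -0.31 to 0.25), and a sign this close to 0 turned to 0.01 with scaling by library size alone.

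miR-200c-3p, the main family member, had a median of 16.9 CPM in naive rats (12.7 to 23.5) and of 17.7 CPM (15.2 to 28.3) in bPYX+GFP rats. Its log2 fold change was 0.12 ± 0.19 (95% interval -0.28 to 0.51; edgeR adjusted p = 0.787). It turned to -0.01 without bPYX+GFP replicate 2, the highest library of that group, and was 0.21 without naive replicate 4. miR-200b-3p had a median of 2.03 CPM in naive rats (0.973 to 3.21) and of 2.50 CPM (1.63 to 4.28) in bPYX+GFP rats, and its log2 fold change was 0.33 ± 0.33 (95% interval -0.36 to 1.02; edgeR adjusted p = 0.626), and 0.12 without bPYX+GFP replicate 3. miR-200a-3p, its cluster neighbour, had a median of 1.84 CPM in naive rats (0.874 to 2.69) and of 2.21 CPM (1.22 to 2.99) in bPYX+GFP rats, and its log2 fold change was 0.30 ± 0.34 (95% interval -0.42 to 1.01; edgeR adjusted p = 0.673), from 0.17 without naive replicate 3 to 0.46 without naive replicate 1. Groups overlapped for each of the 4.

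Thus 0 of the 3 tested family members passed an adjusted p of 0.05 after injury, where 9 of 373 miRNAs did (2.41%) by edgeR. That count was 22 by DESeq2 and 3 to 20 with single libraries left out. miR-205 is left out of these counts, as it was already listed as not changed here. At an unadjusted p under 0.05, the threshold used in the study, 0 of the 3 passed as well, against 79 of 373 (21.2%). Of these, 40 were higher (10.7%) and 39 lower (10.5%). For 15 miRNAs (4.02%) no library of one group reached the range of the other, and this held for 0 of the 3 family members. The 95% interval of miR-205 was the narrowest of the 4. Those of miR-200a-3p and miR-200b-3p reached up to 1.01 and 1.02 on the log2 scale, with only 4 to 27 counts of each per library in these groups.

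The second comparison, bPYX+NT3 against bPYX+GFP, asks what differed with NT3 among injured rats. miR-205 had 151, 83.0, 131, 61.8, 73.7 and 63.4 CPM in bPYX+NT3 replicates 1 to 6, a mean of 93.9 ± 37.7 CPM (SD, n = 6) and a median of 78.4 CPM. Replicates 1 and 3 stood apart. The other 16 libraries of the series lay between 54.8 and 83.0 CPM, and replicate 1 was 1.82 times and replicate 3 1.57 times the highest of them. Replicate 1 also had the highest share of reads with low alignment quality of the 18 libraries, 35.1%, and the lowest share counted for a miRNA, 32.4%, while replicate 3 had 31.5% and 34.8%, close to the means over all libraries of 31.4% and 34.9%. The part of read quality in the level of miR-205 was not tested. The remaining 4 bPYX+NT3 libraries lay within or just above the range of the bPYX+GFP rats, replicate 2 above their highest value of 82.7 CPM by less than 1 CPM.

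As a description, the log2 fold change of miR-205 was 0.49 ± 0.22 (SE), with 4 of 6 bPYX+NT3 libraries above the bPYX+GFP mean and 3 of 6 above its highest library. Without bPYX+NT3 replicate 1 it was 0.32 and without bPYX+NT3 replicate 6 it was 0.58, the ends of the range over all 12 libraries left out in turn. The mean of the bPYX+NT3 group without replicate 1 was 82.5 CPM. By edgeR, 0 of 373 miRNAs (0%) passed an adjusted p of 0.05 in this comparison and 32 (8.58%) an unadjusted one, and DESeq2 gave 0 and 33. Of the 32, 19 were higher (5.09%) and 13 lower (3.49%).

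**Figure D2:**
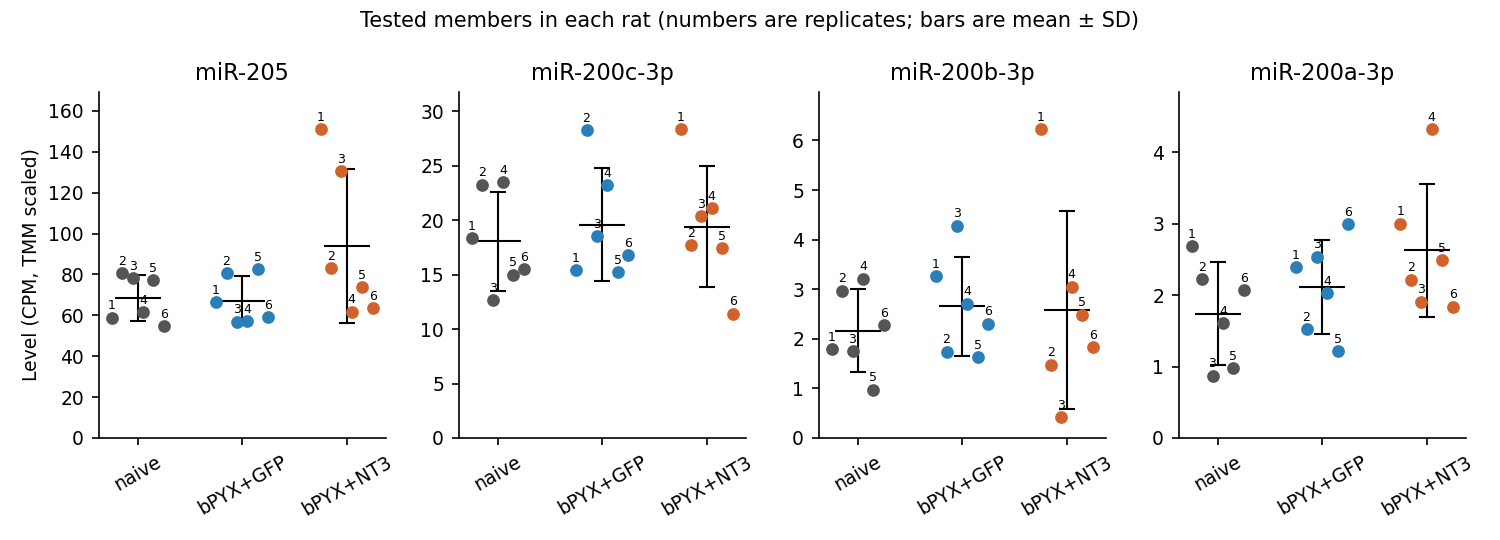
Level in CPM (vertical) of the 4 tested members in each rat by group, with replicate numbers beside the points and bars for mean ± SD (n = 6). bPYX+NT3 replicates 1 and 3, at 151 and 131 CPM, lie above every other library for miR-205. The groups overlap for all 4 members.

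The miR-200 family was high in one of these libraries and not in the other. In bPYX+NT3 replicate 1 its sum was 39.7 CPM, the highest of the 18 libraries (33.5 CPM in the next), and miR-200c-3p, miR-200b-3p and miR-429 were each at their highest there, miR-200c-3p by a narrow margin. In replicate 3 the sum was 24.2 CPM, rank 9 of 18 from the highest. Over the group, miR-200c-3p ranged from 11.4 to 28.4 CPM in bPYX+NT3 (median 19.0), and its log2 fold change against bPYX+GFP was -0.01 ± 0.21 (95% interval -0.45 to 0.43; edgeR adjusted p = 0.986), turning to 0.03 with scaling by library size alone. miR-200b-3p ranged from 0.424 to 6.23 CPM (median 2.16), the lowest and the highest value of this miRNA in the series, and its log2 fold change was -0.06 ± 0.42 (95% interval -0.95 to 0.82; edgeR adjusted p = 0.962). Its extremes were in bPYX+NT3 replicates 1 and 3, the same libraries that had most miR-205, with 27 and 2 counts. Without replicate 1 its log2 fold change was -0.52, and without bPYX+GFP replicate 3 it was 0.13.

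miR-200a-3p ranged from 1.84 to 4.32 CPM in bPYX+NT3 (median 2.35), with a log2 fold change against bPYX+GFP of 0.31 ± 0.27 (95% interval -0.27 to 0.88; edgeR adjusted p = 0.735). Its highest library was replicate 4, which had the lowest level of miR-205 in the group. Without that library the log2 fold change of miR-200a-3p was 0.12. None of the 3 tested family members passed an adjusted or an unadjusted p of 0.05 by edgeR. Whether the fold change of miR-205 differed from that of its family partners was not tested.

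The third comparison, bPYX+NT3 against naive, uses the same bPYX+NT3 libraries again and is not independent of the second. The log2 fold change of miR-205 was 0.45 ± 0.21 (SE, a description), with 4 of 6 bPYX+NT3 libraries above the naive mean and 3 of 6 above its highest library. It ranged from 0.32 without bPYX+NT3 replicate 1 to 0.58 without bPYX+NT3 replicate 4. By edgeR, 0 of 373 miRNAs (0%) passed an adjusted p of 0.05 and 51 (13.7%) an unadjusted one, and DESeq2 gave 1 and 56. Of the 51, 27 were higher (7.24%) and 24 lower (6.43%). None of the 3 tested family members passed either threshold.

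miR-200a-3p had the largest log2 fold change in this comparison among the 3 family members past the detection filter, 0.59 ± 0.32 (95% interval -0.10 to 1.27; edgeR adjusted p = 0.390). All 6 bPYX+NT3 libraries lay above the naive mean of 1.74 ± 0.72 CPM, but the groups overlapped. miR-200b-3p had 0.25 ± 0.45 (95% interval -0.72 to 1.21; edgeR adjusted p = 0.834), which turned to -0.18 without bPYX+NT3 replicate 1, and miR-200c-3p had 0.10 ± 0.20 (95% interval -0.32 to 0.53; edgeR adjusted p = 0.840), from 0.0048 without bPYX+NT3 replicate 1 to 0.22 without bPYX+NT3 replicate 6. The groups overlapped for each of the 3 family members, against 5 of 373 miRNAs (1.34%) whose groups did not. They overlapped for miR-205 as well.

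**Figure D3:**
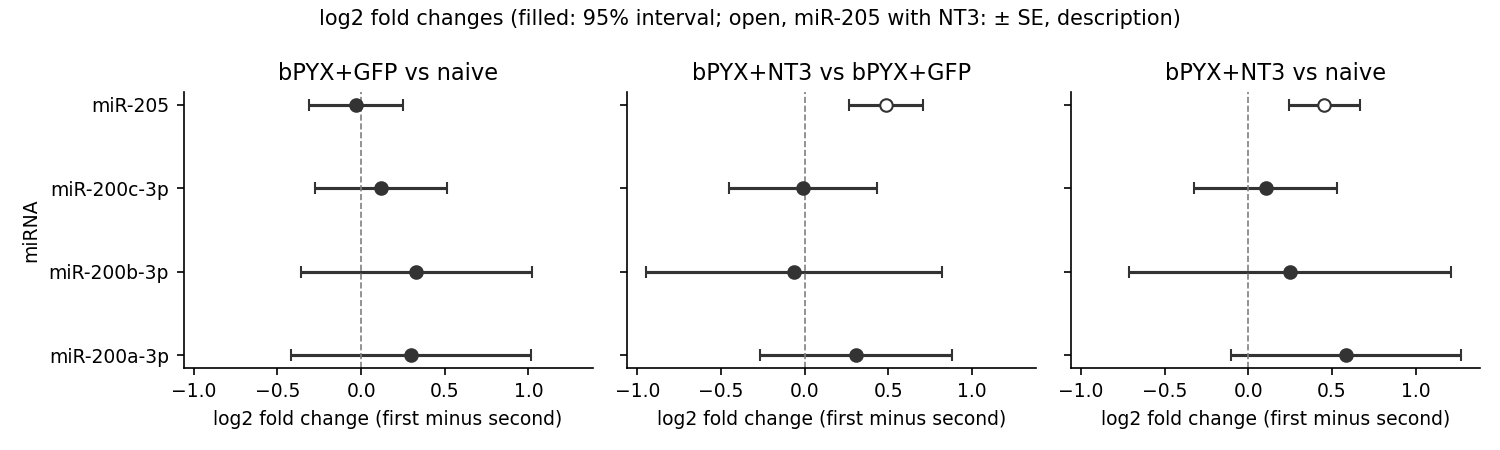
log2 fold change (horizontal, first group minus second) of the 4 tested members in the 3 comparisons. Filled points carry 95% intervals, all of which include 0, and open points show miR-205 in the comparisons with bPYX+NT3 with ± SE, at 0.49 and 0.45.

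**Figure D4:**
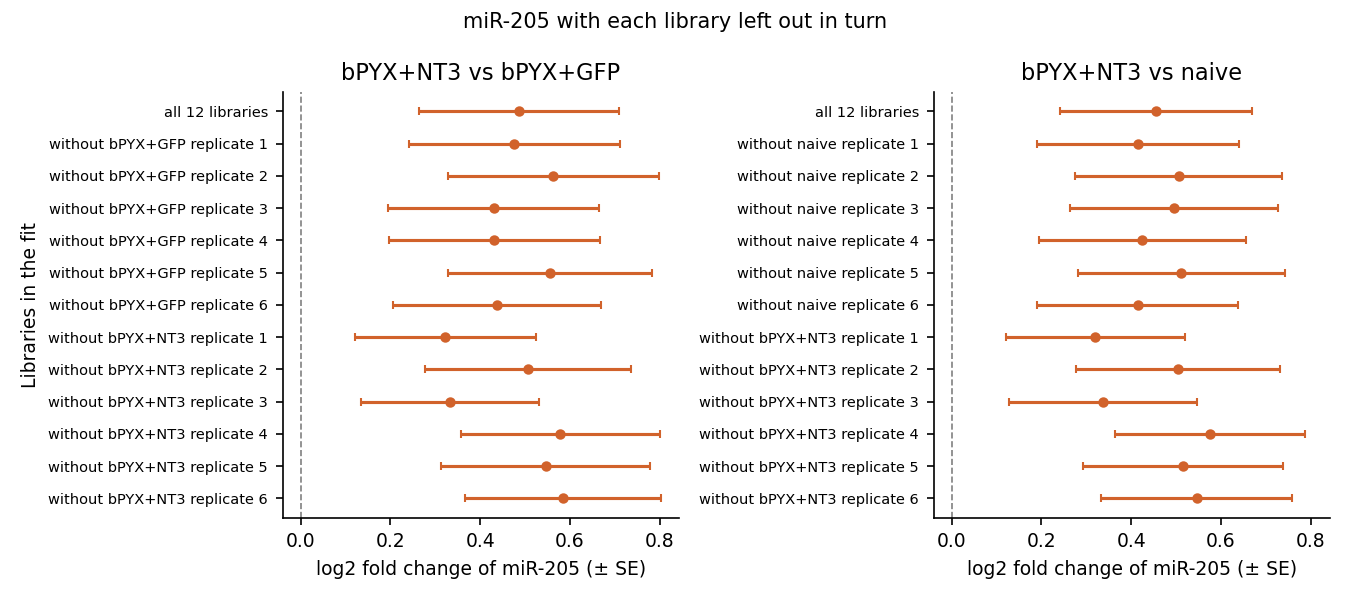
log2 fold change ± SE of miR-205 (horizontal) in both comparisons with bPYX+NT3, with all 12 libraries and with each left out in turn (vertical). The value stays above 0 and falls to 0.32 without bPYX+NT3 replicate 1 in both.

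Below the detection filter, miR-429, which belongs to the cluster of miR-200a and miR-200b, had 3, 0, 0, 0, 4 and 4 counts in naive replicates 1 to 6, 0, 2, 4, 0, 0 and 2 in bPYX+GFP and 7, 4, 4, 4, 2 and 2 in bPYX+NT3. All 6 bPYX+NT3 libraries had counts, against 3 of 6 in each other group, but single libraries overlapped. The group totals of 11, 8 and 23 counts correspond to 0.385 (exact Poisson 95% interval 0.192 to 0.688), 0.271 (0.117 to 0.534) and 0.868 (0.550 to 1.30) counts per M, intervals that cover counting error only. Tested without the filter, its log2 fold change was 1.58 ± 0.67 in bPYX+NT3 against bPYX+GFP (95% interval 0.17 to 3.00; edgeR unadjusted p = 0.0307, adjusted p = 0.50 over 562 miRNAs), 1.11 ± 0.71 against naive (adjusted p = 0.505) and -0.50 ± 0.95 after injury (adjusted p = 0.850).

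The other low members gave still less. In the order naive, bPYX+GFP, bPYX+NT3, miR-141-5p had 21, 19 and 14 counts, miR-141-3p 5, 3 and 4, and miR-200b-5p 1, 4 and 2. With so few counts, differences between groups could be missed. In bPYX+NT3 against naive the 95% interval on the log2 scale was -1.57 to 0.59 for miR-141-5p and -1.80 to 3.20 for miR-200b-5p. Without the filter no low member passed an adjusted p of 0.05 (edgeR adjusted p from 0.50 to 0.946).

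The spread between rats was described next, as the ratio of the variance within groups to that of counting alone, which is 1 for counting noise. miR-205 had a ratio of 28.9 (15 degrees of freedom), miR-200c-3p 6.32, miR-200b-3p 3.51 and miR-200a-3p 1.26. This ratio grows with the level of a miRNA, so it does not rank members by how much they vary, and that of miR-205 rests largely on bPYX+NT3. By group, the ratio of miR-205 was 8.76 for naive rats, 10.3 for bPYX+GFP rats and 67.7 for bPYX+NT3 rats. Its coefficient of variation was 16.6%, 17.6% and 40.1%, where the median over the 373 tested miRNAs was 13.9%, 12.9% and 16.9%. That of miR-200a-3p was 41.5%, 31.3% and 35.5%, at counts of 4 to 17 per library. By this measure 138 of the tested miRNAs varied more than miR-205 among naive rats, 126 among bPYX+GFP rats and 21 among bPYX+NT3 rats. miR-200b-3p in bPYX+NT3 had a coefficient of variation of 77.3%, exceeded by 2 tested miRNAs, from counts of 2 to 27. Whether the spread of either differed between groups was not tested.

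Levels of members were then compared from rat to rat, on log2 CPM with group means removed and over all 6 pairs of tested members. miR-200a-3p and miR-200b-3p, made from neighbouring genes, moved together most. Their Pearson r was 0.561 over 18 libraries (permutation p = 0.0131, Benjamini-Hochberg adjusted 0.0786) and their Spearman rho 0.626 (permutation p = 0.00656, adjusted 0.0394). The rank measure thus passed narrowly after adjustment and the linear one did not. The permutations shuffled centred values over all 18 libraries and made no allowance for the removed group means. The permutation p-values can therefore be too small, and the narrow pass of the rank measure is not firm. The r was 0.570 without the libraries farthest from the median, naive replicate 3 and bPYX+NT3 replicate 4. Within groups it was 0.548 for naive, 0.718 for bPYX+GFP and 0.642 for bPYX+NT3. These are low counts, of 2 to 27 per library, and both share the library's depth.

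miR-205 was not shown to move with any family member. Its r with miR-200c-3p was 0.370 (permutation p = 0.129, adjusted 0.203; rho 0.222, permutation p = 0.374, adjusted 0.374) and fell to 0.147 without bPYX+NT3 replicates 1 and 3. With miR-200a-3p it was -0.381 (permutation p = 0.119, adjusted 0.203; rho -0.406, permutation p = 0.0960, adjusted 0.164), and -0.531 without the same libraries. With miR-200b-3p it was -0.190 (permutation p = 0.450, adjusted 0.450; rho -0.335, permutation p = 0.173, adjusted 0.208), and -0.487 without them. Within groups, r with miR-200a-3p was -0.563, -0.855 and -0.152 (naive, then bPYX+GFP, then bPYX+NT3), and r with miR-200b-3p was -0.276, -0.787 and -0.0553. For miR-200c-3p the within-group values were -0.129, 0.0808 and 0.695.

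miR-200c-3p, from the other gene cluster, had an r of 0.365 with miR-200a-3p (permutation p = 0.135, adjusted 0.203; rho 0.414, permutation p = 0.0902, adjusted 0.164; r 0.246 without the libraries farthest from the median) and of 0.314 with miR-200b-3p (permutation p = 0.206, adjusted 0.247; rho 0.393, permutation p = 0.109, adjusted 0.164; r 0.305 without them). Within naive, bPYX+GFP and bPYX+NT3, r was 0.62, -0.212 and 0.581 with miR-200a-3p, and 0.715, -0.199 and 0.352 with miR-200b-3p. Neither passed after adjustment, and the sign in bPYX+GFP was opposite to that in the other groups.

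**Figure D5:**
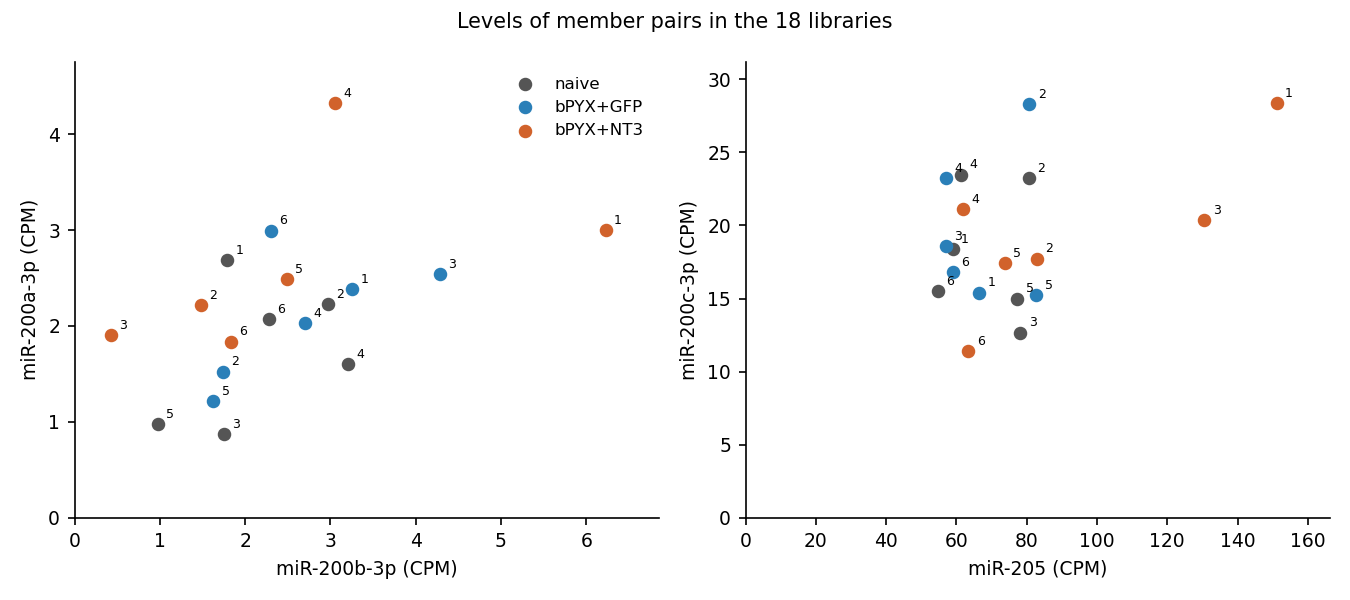
Levels in CPM of member pairs in the 18 libraries, coloured by group and numbered by replicate. miR-200a-3p (vertical) tends to be high where miR-200b-3p (horizontal) is high, r 0.561 on centred log2 values, and in the other panel bPYX+NT3 replicates 1 and 3 lie to the right of all other libraries for miR-205 (horizontal) against miR-200c-3p (vertical).

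Among the 369 other tested miRNAs, those most like miR-205 over the 18 libraries (Spearman rho of centred log2 CPM, a description) were miR-23b-3p at 0.742, miR-221-3p at 0.709, miR-582-3p at 0.692, miR-362-5p at 0.690 and miR-212-3p at 0.680, where the median over all was -0.04. Without bPYX+NT3 replicates 1 and 3 these values lay between 0.565 and 0.632. In those 2 libraries miR-23b-3p, at 3676 and 3648 CPM, was above its highest value elsewhere of 3468 CPM, as were miR-582-3p at 55.1 and 60.6 CPM (53.7 CPM elsewhere). miR-221-3p, at 570 and 674 CPM, exceeded its highest value elsewhere of 586 CPM in replicate 3 only, and so did miR-362-5p at 43.6 and 54.9 CPM (46.0 CPM elsewhere) and miR-212-3p at 6.23 and 6.78 CPM (6.75 CPM elsewhere). Thus 2 of the 5 were highest in both libraries. These margins were smaller than those of miR-205. Choosing the 5 by likeness to miR-205 favours high values in these libraries, and the share among all 369 was not counted.

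The summed miR-200 family was most like miR-3064-5p at 0.734, miR-375-3p at 0.692, miR-187-3p at 0.647, and miR-3559-3p and miR-3559-5p at 0.639 each, with a median over all of 0.00. Of these, miR-375-3p is another miRNA of epithelia and of endocrine cells, and its level was low, at 0.874 to 9.16 CPM. The other tested miRNAs of the epithelial list below, miR-192-5p, miR-194-5p and miR-184, were not among those most like the family. Such ranks were chosen as the highest of 369 and carry no test.

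Other miRNAs of epithelia gave a background for both families. Of 13 listed entries, 4 were tested and 6 are listed at 0 in all libraries. The most abundant was miR-192-5p, known from gut, liver and kidney, at 331 to 474 CPM, followed by miR-194-5p at 21.6 to 32.4 CPM, miR-184, known from cornea and skin, at 2.90 to 29.0 CPM, and miR-375-3p. None of the 4 passed an adjusted p of 0.05 in any comparison by edgeR. At an unadjusted p under 0.05 none passed after injury or in bPYX+NT3 against bPYX+GFP, and miR-192-5p was lower in bPYX+NT3 than in naive (1 of 4, against 6.43% of all tested), at -0.20 ± 0.09 on the log2 scale (edgeR adjusted p = 0.349). The list's median log2 fold change was -0.01, 0.08 and -0.08 in the order of the comparisons above, beside 0.00, -0.00 and -0.01 over all 373 tested miRNAs.

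In bPYX+NT3 replicates 1 and 3, with most miR-205, the list's summed level was 459 and 382 CPM, ranks 12 and 17 of the 18 libraries from the highest. This sum was mostly miR-192-5p, at 408 and 334 CPM (ranks 13 and 17). The less abundant members ranked higher in both libraries, with miR-184 at 15.0 and 13.4 CPM (ranks 4 and 8), miR-375-3p at 4.15 and 3.39 CPM (ranks 5 and 8), miR-194-5p at 27.5 and 26.3 CPM (ranks 7 and 11), miR-31a-3p at 1.15 and 0.848 CPM (ranks 6 and 8), miR-194-3p at 1.85 and 2.54 CPM (ranks 5 and 3) and miR-192-3p at 1.38 and 1.27 CPM (ranks 10 and 12). Summed skeletal muscle markers (2 of 4 listed at 0) were 266 and 246 CPM in the same libraries, ranks 2 and 4, within group ranges of 99.0 to 179 CPM for naive, 71.5 to 335 CPM for bPYX+GFP and 84.5 to 266 CPM for bPYX+NT3. miR-1-3p and miR-133a-3p, which define muscle, are listed at 0, and miR-206-3p gave most of the sum. Summed neuron markers were at ranks 4 and 16, endothelial markers at 5 and 18, blood markers at 9 and 7, fibroblast markers at 13 and 10 and smooth muscle markers at 15 and 6. The smooth muscle sum was nearly all miR-143-3p. miR-145-5p ranked 6 and 2, at 1317 and 1869 CPM, and was highest in naive replicate 2 at 2228 CPM. Its log2 fold change in bPYX+NT3 against bPYX+GFP was 0.40 ± 0.16 (edgeR unadjusted p = 0.0249, adjusted p = 0.442). In bPYX+GFP against naive it was -0.50 ± 0.14 (edgeR unadjusted p = 0.00279, adjusted p = 0.0742). In bPYX+NT3 against naive it was -0.12 ± 0.18 (edgeR unadjusted p = 0.539, adjusted p = 0.805). The other smooth muscle marker, miR-143-3p, had -0.0017 ± 0.11, 0.0096 ± 0.12 and -0.0083 ± 0.14 in the same order of comparisons. The part of other cell types in the level of miR-205 was not tested.

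The cluster of miR-183, miR-96 and miR-182, which is typical of sensory cells, was far more abundant than either family, with miR-182 at 19521 to 28567 CPM and miR-96-5p at 3434 to 5261 CPM. Of its 5 entries 4 were tested, and none passed an adjusted p of 0.05 in any comparison by edgeR. At an unadjusted p under 0.05, 2 of 4 were higher after injury (10.7% of all tested miRNAs were), miR-182 by 0.20 ± 0.08 on the log2 scale (edgeR adjusted p = 0.173) and miR-183-3p by 0.23 ± 0.10 (adjusted p = 0.222). In bPYX+NT3 against bPYX+GFP none passed, and against naive 1 of 4 was higher (7.24% of all tested), miR-182 by 0.19 ± 0.09 (adjusted p = 0.349). The median log2 fold changes were 0.13, -0.05 and 0.08.

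Finally, 9 other miRNAs described as repressing the ZEB factors or the related SNAI factors were examined, 8 of them tested. They were mostly abundant, led by miR-30a-5p at 15131 to 25663 CPM and miR-204-5p at 5315 to 11922 CPM, so that miR-205 and miR-200c-3p were minor miRNAs of this kind in the ganglia. None passed an adjusted p of 0.05 by edgeR. At an unadjusted p under 0.05, miR-101a-3p and miR-101b-3p were higher after injury (2 of 8, against 10.7% of all tested), by 0.21 ± 0.08 on the log2 scale (edgeR adjusted p = 0.173) and 0.24 ± 0.08 (adjusted p = 0.122), and miR-34c-5p was lower (1 of 8, against 10.5%), with -0.22 ± 0.10 (adjusted p = 0.225). In bPYX+NT3 against bPYX+GFP none passed. Against naive 2 of 8 passed (13.7% of all tested). miR-101b-3p was higher with 0.16 ± 0.07 (adjusted p = 0.349) and miR-30a-5p lower with -0.24 ± 0.11 (adjusted p = 0.349). The list's median log2 fold changes were -0.06, -0.04 and -0.05. The miR-101 pair is near-identical in sequence, and reads could be split between its entries.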

How the data were processed

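Small RNA was sequenced from the pooled C6 to C8 DRGs of each rat. Per the submitters' processing notes and the study's methods, reads were demultiplexed with bcl2fastq 1.8.4, trimmed of adapters, aligned with Bowtie2 (build Rnor_5.0) and counted with HTSeq. Other versions and the miRNA annotation release are not given in the sources used here. The deposited values are raw read counts per mature miRNA by the authors, with no normalization. Of all reads, 34.9 ± 1.68% were counted for a miRNA, 27.2 ± 0.66% were not aligned and 31.4 ± 1.88% (28.0 to 35.1%) had low alignment quality, as reads that fit several places do, so that miRNAs with near-identical copies can be undercounted. The study's methods give much higher shares of reads mapped and of reads mapped to miRNA features. Whether those shares refer to the same reads was not checked. The 5 totals of reads given to no miRNA were left out of library sizes. No molecular identifiers are stated, so reads can be PCR copies and intervals from counts cover counting error only.

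Members and lists were chosen with earlier results of these data known. A miRNA was tested where 6 or more of the 18 libraries held over 10 counts (373 of 753). Each of the 3 comparisons was fitted on its 12 libraries with edgeR 4.0.16 in R 4.3.3 (TMM scaling, quasi-likelihood F test, two-sided, Benjamini-Hochberg adjustment over 373 miRNAs). The SE of a log2 fold change came from its F statistic. Correlations used log2 CPM with a prior count of 0.5, centred on group means, and two-sided permutation tests with 100000 resamples. The resamples shuffled libraries across groups. Named miRNAs were all members, the 5 most like miR-205 and the 5 most like the family sum, and fixed lists. The study left out naive replicate 1 as an outlier, which is included here and dropped in 1 alternative. Other alternatives were RLE or library size scaling, no or a stricter filter (100 counts), a likelihood ratio test, DESeq2 1.42.0, a fit of all libraries and a replicate block. No library was a copy of another, the smallest chi-square per degree of freedom between 2 libraries of a group being 39.6. The fit was also run on simulated counts, from which no result is drawn here.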

Additional observations from a re-analysis of the deposited data

How the results depend on the processing

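Of 437 alternative values, 404 were taken as kept, 15 moved and 18 reversed, and the cause of these was not tested. Kept values had the same direction and side of the threshold, or stayed within the replicate spread. A count of called miRNAs was taken as kept where its size was similar, as with 53 against 79 unadjusted calls in bPYX+GFP against naive. A likeness was taken as kept wherever its rho stayed above 0. Among the values of members given with a test, none passed an adjusted p of 0.05 under any alternative, the lowest being 0.306 for miR-200a-3p in bPYX+NT3 against naive. The count of miRNAs with an adjusted p under 0.05 in bPYX+GFP against naive was 9 and became 22 with DESeq2, and in bPYX+NT3 against naive 0 became 1 with the likelihood ratio test, DESeq2 or 1 fit of all 18 libraries. The unadjusted count in bPYX+NT3 against bPYX+GFP was 32 of 373 miRNAs, and 54 of the 562 tested with no detection filter. Scaling by library size only turned miR-205 in bPYX+GFP against naive to 0.0098 and miR-200c-3p in bPYX+NT3 against bPYX+GFP to 0.030. The stricter filter of 100 counts gave no value for the members other than miR-205. Leaving out each library in turn gave 3 to 20 adjusted and 53 to 78 unadjusted calls in bPYX+GFP against naive (20 without naive replicate 2, and 3 to 5 when the library dropped was naive replicate 3, naive replicate 4, or replicate 1, 4 or 5 of bPYX+GFP), 0 adjusted and 24 to 54 unadjusted in bPYX+NT3 against bPYX+GFP (54 without bPYX+NT3 replicate 4), and 0 to 4 adjusted and 32 to 68 unadjusted in bPYX+NT3 against naive (1 and 4 without bPYX+NT3 replicates 1 and 4, and 32 without replicate 3). The log2 fold changes that reversed ranged over -0.014 to 0.21 for miR-200c-3p and -0.12 to 0.024 for miR-205 in bPYX+GFP against naive, -0.52 to 0.13 for miR-200b-3p and -0.13 to 0.15 for miR-200c-3p in bPYX+NT3 against bPYX+GFP, and -0.18 to 0.48 for miR-200b-3p in bPYX+NT3 against naive. Same-numbered libraries did not deviate together, so the numbers were not taken to pair rats. Of 18 same-numbered pairs, 7 had a correlation over 0.1 (all from -0.36 to 0.34), and in 5 the own number was the best match. With the replicate block the adjusted counts were 7, 0 and 0, the unadjusted 76, 39 and 48, and the log2 fold change of miR-205 in the comparisons with bPYX+NT3 0.43 and 0.38. A test for single outliers marked no library in 15 groups of member levels, but it cannot mark 2 high libraries that mask each other, as bPYX+NT3 replicates 1 and 3 may for miR-205. At a depth of 3.88 to 6.92 M counts, miR-200a-3p and miR-200b-3p had 2 to 27 counts per library, which limits what could be detected for them. The likeness of other miRNAs without the farthest libraries or with library size scaling was added after seeing the data.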
